A study of Arabidopsis thaliana with 4 samples.

Results

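Transformant OX17 is 1 independent T1 plant of Arabidopsis thaliana, ecotype Col-0, that carries the wheat GSK3/Shaggy-like kinase gene TaSK5 behind the 35S promoter. Its rosette-leaf RNA was compared with that of a wild-type Col-0 plant on 2 two-colour Agilent arrays, chosen by their labels, out of 4 arrays in all. OX17 was in Cy5 on array 1 and in Cy3 on array 2, with wild type in the other dye. The other 2 arrays set transformant OX7, a second T1 plant with the same transgene, against wild type in the same way. All plants were 3 weeks old and untreated, and were grown on soil at 22 °C under a light intensity near 100 µmol per square metre and second, with 16 h of light and 8 h of dark. From each sample, 500 ng of total RNA was labelled.

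The 35S promoter comes from cauliflower mosaic virus and is active in most plant tissues, so the transgene is not limited to one cell type. No probe is named for TaSK5, and its level was not analysed here. The dye swap repeats 1 pair of RNA samples, so OX17 counts as 1 replicate and no test across plants was possible. The labels do not say whether OX17 and OX7 were set against the same wild-type RNA. In whole leaves, fewer cells of a type and less RNA per cell cannot be told apart.

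GSK3/Shaggy-like kinases are plant relatives of glycogen synthase kinase 3. In Arabidopsis the best known member, BIN2, phosphorylates the transcription factors BES1 and BZR1 and so restrains the response to brassinosteroids, steroid hormones that promote cell expansion. Kinases of the family also act in abscisic acid signalling and in responses to salt, drought and wounding. Jasmonate, the hormone of the wound and herbivore response, is made from chloroplast lipids through lipoxygenase and allene oxide synthase and acts by removal of the JAZ repressors.

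Each value below is a log2 ratio, OX17 over wild type unless OX7 is named, so that 1 stands for a 2-fold higher signal and -1 for a 2-fold lower one. A gene was called higher or lower when it was at least 2-fold different in the same direction on both arrays. Of 19737 genes measured, 490 (2.48%) were called higher in OX17 and 380 (1.93%) lower, 870 (4.41%) in all. The genes called higher had a median of 1.43, a 2.69-fold difference, and the genes called lower had a median of -1.48, a 2.78-fold difference. At 4-fold on both arrays there were 68 genes higher (0.345%) and 52 lower (0.263%). At 8-fold there were 7 higher (0.0355%) and 9 lower (0.0456%).

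A call needs both arrays past 2-fold in the same direction, so agreement of the arrays among called genes is partly set by the rule. The distance of each array from the mean of both had a median of 0.108 over all genes, 0.0761 over the genes called higher and 0.0811 over those called lower. No gene was 2-fold or more towards the same dye on both arrays, while 652 genes passed 2-fold on 1 array only. Across genes, which are not independent replicates, Pearson's r between the arrays was 0.72 and Spearman's rho 0.45. This spread is technical and holds nothing of the difference between plants.

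**Figure D1:**
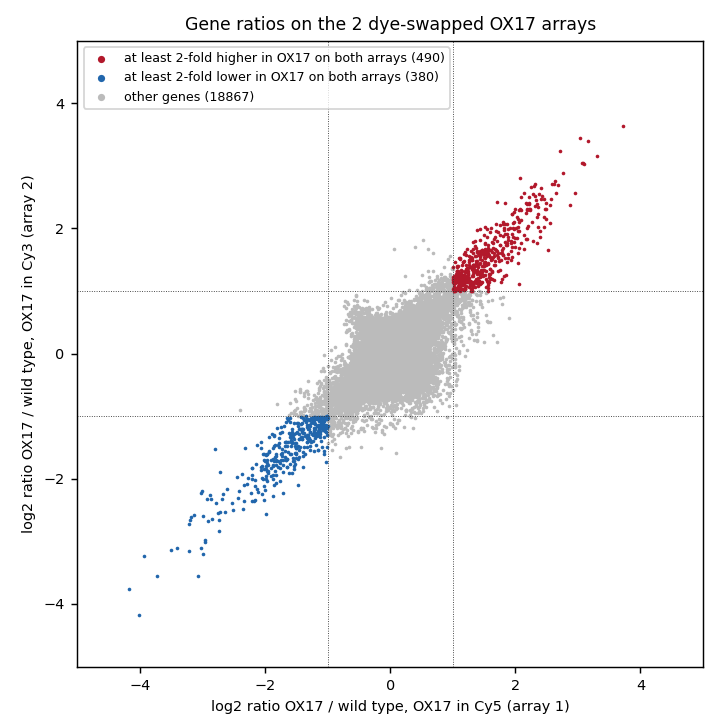
Log2 ratio of OX17 over wild type for each of 19737 genes on array 1 (horizontal axis, OX17 in Cy5) and array 2 (vertical axis, OX17 in Cy3), with dotted lines at 2-fold. The 490 genes called higher (red) and the 380 called lower (blue) lie in the corners beyond the dotted lines, where the rule places them.

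More probes were called among bright spots. With the genes put in 4 equal groups by brightness, 0.101% were higher and 0.0811% lower in the dimmest group, and 5.37% were higher and 4.93% lower in the brightest. The distance of each array from the mean of both had a median of 0.223 in the dimmest group and 0.0724 in the brightest. The correction for background shrinks ratios of dim spots, so the absence of a call says least for dim genes. Up to 18 gene spots per channel were saturated on the OX17 arrays. Of the 21 genes with a saturated spot, 16 were in the lists for antenna, photosystem and Calvin cycle genes, and the ratio of such a spot is held by the scanner's ceiling.

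All 5 leaf mesophyll markers, all 6 flower markers and all 5 root markers were flagged as well above background in every channel of the OX17 arrays, so that flag does not separate leaf from other organs here. None of the flower, root, phloem or xylem markers was called. Among the guard cell markers 1 of 5, AT1G22690, was lower, at -1.68 and -1.41. Of the mesophyll markers RBCS1A and RCA were saturated, and the carbonic anhydrase gene CA1 was lower at -2.42 and -2.2. Among 7 reference genes none was called and their median was 0.07.

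The gene with the highest ratio in OX17 was AT1G15670, annotated only as an expressed protein, at 3.72 on array 1 and 3.63 on array 2. That is a 12.8-fold higher signal in OX17 than in wild type, against 0.67 and 0.87 in OX7. AT2G34810, a FAD-linked oxidoreductase, followed with 3.17 and 3.40, and had 1.27 and 1.71 in OX7. RD20, which encodes a calcium-binding caleosin of the drought response, had 3.31 and 3.16 in OX17 and 1.54 and 1.35 in OX7.

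Of the 15 genes with the highest ratios, 5 encode regulators of transcription or hormone response. The NAC factor NAC6 (AT5G39610), known as ORE1 and as a driver of leaf senescence, had 3.08 and 3.05. The MYB factor PAP1, which activates anthocyanin synthesis, had 3.07 and 3.05 in OX17 and 1.04 and 1.35 in OX7. ERF53, an AP2 factor of the drought response, had 3.03 and 3.45, and its OX7 values were 0.14 and 0.16. CEJ1, another factor of the AP2 family, had 2.77 and 2.89. AFP3, of the family that binds the abscisic acid factor ABI5, had 2.64 and 2.57.

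The rest of the 15 were enzymes and binding proteins. They were the glutathione transferases GSTU4 (3.10 and 3.04) and GSTU10 (2.96 and 2.56), the jasmonate-responsive cystine lyase CORI3 (2.72 and 3.23) and the cytochrome P450 CYP71B23 (2.68 and 2.69). The annexin ANNAT4 had 2.64 and 2.75, the thioredoxin TRX5 had 2.59 and 2.71, and GolS2 had 2.62 and 2.71. GolS2 makes galactinol, the precursor of the raffinose sugars that protect dry and cold cells. The next gene below these 15 was AT4G01700, at 2.57 and 2.48.

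The lowest ratio was that of AT2G10940, annotated as an expressed protein, at -4.01 and -4.18. Its signal was 17.1-fold lower in OX17 than in wild type, while its OX7 values were 1.32 and 1.16. DELTA-TIP, a water channel of the vacuole membrane, had -4.18 and -3.75 in OX17 and 0.60 and 0.87 in OX7. AT5G44020, annotated as similar to vegetative storage proteins, had -3.72 and -3.55. These 3 genes thus had values of opposite sign in the OX17 and OX7 arrays.

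The rest of the lowest 15 included cell surface proteins, stress regulators and proteases. The arabinogalactan proteins AGP17 and AGP12, glycoproteins of the cell surface, had -3.94 and -3.24, and -2.96 and -2.98. The transcription factor genes ORA47 (-3.21 and -3.15) and CBF1 (-3.02 and -3.11) belong to the AP2 family, and CBF1 drives cold acclimation. The papain-like cysteine protease gene AT2G27420 (-3.22 and -2.72) was lower in OX7 too, at -1.62 and -1.49. AT2G27395, which the reference table lists as a transcribed pseudogene and the array annotates as a cysteine protease, had -3.51 and -3.13 in OX17 and -1.63 and -1.58 in OX7. Cross-hybridisation between these 2 was not tested.

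The last of the lowest 15 were of several kinds. The antenna gene LHB1B1 had -3.07 and -3.55, and DIC2, a mitochondrial dicarboxylate carrier, had -2.99 and -3.20. TGG1, a myrosinase that cleaves glucosinolates when tissue is damaged, had -2.91 and -2.68. AT5G42760 (-2.95 and -3.01), AT4G29780 (-2.73 and -2.83) and the lipase-like AT1G29660 (-3.20 and -2.66) completed them, and EXPA1 came next with -2.74 and -2.66. One called gene, CER4, an alcohol-forming enzyme of wax synthesis, was not well above background in the OX17 channel. Under the processing used here it was at least 2.06-fold lower in OX17 than in wild type. Across the alternative settings its log2 ratio lay between -3.13 and -0.75.

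**Figure D2:**
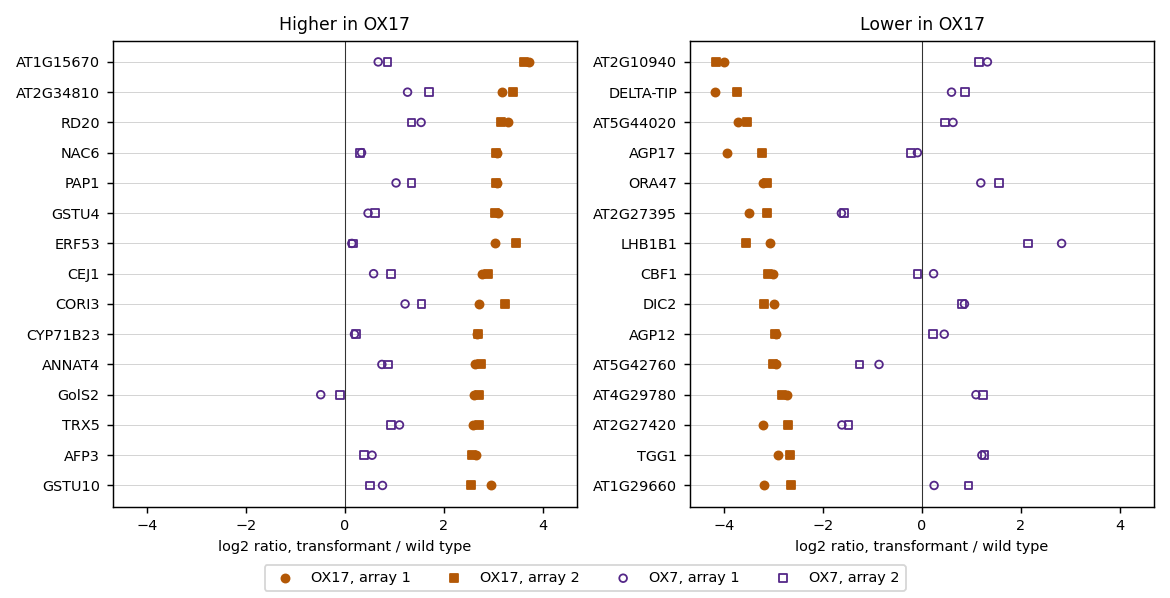
Log2 ratio of transformant over wild type (horizontal axis) for the 15 genes highest (left) and the 15 lowest (right) in OX17, with OX17 filled and OX7 open, circles for array 1 and squares for array 2. For LHB1B1 the OX17 arrays lie at -3.07 and -3.55 and the OX7 arrays at 2.82 and 2.14.

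Genes for several steps of jasmonate synthesis were called higher in OX17. Of 15 synthesis genes 5 were called higher and none lower, with a list median of 0.80, against -0.0087 over all genes measured. LOX2, the chloroplast lipoxygenase of the first step, had 2.07 and 2.31, with 1 saturated spot. AOS, the allene oxide synthase of the next step, had 1.87 and 1.46, OPR3, a reductase of the peroxisome, had 1.86 and 1.73, and the peroxisomal oxidase ACX1 had 1.22 and 1.32. The methyltransferase JMT was not called, at -0.49 and -0.67. In OX7 LOX2 alone of this list was called, at 1.17 and 1.22.

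Of 14 jasmonate signalling genes 3 were called higher, all of them JAZ repressors, and 1 lower. JAZ1 had 1.33 and 1.61, JAZ12 had 1.3 and 1.54, and TIFY10B, also called JAZ2, had 1.05 and 1.16. The transcription factor gene MYC4 was lower at -1.72 and -1.53, while MYC2, the main factor of the pathway, stood at -0.01 and 0.04 and the receptor gene COI1 at -0.69 and -0.54. In OX7 JAZ1 was called too, at 1.09 and 1.33.

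Genes that respond to jasmonate showed the highest median of the 46 lists examined, 1.58 in OX17 and 0.11 in OX7. In OX7 4 of 15 measured members were called higher and none lower. In OX17 9 of 15 were called higher and none lower. Besides CORI3 these included the tyrosine aminotransferase TAT3 (2.29 and 2.55) and the acetyltransferase NATA1 (2.32 and 2.71). The terpene synthase TPS04, which makes the precursor of a volatile, had 2.24 and 2.3, and the storage protein gene VSP2 had 2.17 and 2.41.

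Members of this list differed in how OX7 stood beside OX17. VSP2 had 3.44 and 3.41 in OX7 and NATA1 had 2.28 and 2.89, both as high as or higher than in OX17. CORI3 had 1.22 and 1.55 in OX7, and TAT3 had -0.21 and 0.05 there. The defensin PDF1.2, an output that needs jasmonate and ethylene together, had 2.17 and 1.83 in OX17 and -0.23 and -0.65 in OX7, and the basic chitinase HCHIB had 2.18 and 1.83 in OX17 and 0.23 and -0.01 in OX7.

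The ER body is an organelle of Brassicaceae that stores beta-glucosidases against herbivores. In a joint list of ER body and jacalin-type lectin genes, 7 of 18 were called higher and none lower, with a median of 0.71. The main ER body enzyme PYK10 had 2.47 and 2.31, and BGLU18, a related beta-glucosidase, had 2.05 and 1.95. The jacalin-type lectins JAL23 and JR1 had 2.18 and 2.24, and 1.98 and 2.00. NAI1, the transcription factor that drives ER body genes, had 1.45 and 1.24. In OX7 the list had 4 genes called higher and a median of 0.16. PYK10 had 1.4 and 1.32 there, BGLU18 1.97 and 1.86, JAL23 1.59 and 1.64, and JR1 1.18 and 1.42, while NAI1 had 0.03 and 0.04.

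Glucosinolates are the sulfur-rich defence compounds of this plant family, and camalexin is its main antimicrobial indole compound. Of 13 genes for indole glucosinolates and camalexin 7 were called higher and none lower, with a median of 1.2. PAD3, the cytochrome P450 of the last steps to camalexin, had 2.09 and 2.51, and CYP71A13, which acts before it, had 1.92 and 2.01. GSTF6, a glutathione transferase of the same route, had 2.07 and 2.81. None of 13 genes for aliphatic glucosinolates, which derive from methionine, was called, and their median was 0.11.

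The enzymes that break glucosinolates down were split. TGG1 and TGG2, the classical myrosinases, were lower in OX17 (TGG2 at -2.03 and -1.60) but stood at 1.21 and 1.26, and at 1.65 and 1.82, in OX7. PEN2, an atypical myrosinase needed for resistance to fungi, was higher at 1.08 and 1.14. Of 4 nitrilases, enzymes that can turn nitriles into acids, 3 were called higher. NIT4 had 1.21 and 1.35 in OX17 against -0.98 and -0.95 in OX7.

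Salicylic acid is the hormone of defence against biotrophic pathogens. Of 13 synthesis and signalling genes 4 were called higher and none lower, with a median of 0.87 in OX17 and 0.09 in OX7. PBS3, an enzyme of salicylic acid synthesis, had 1.53 and 1.2, FMO1, which makes a mobile signal of systemic immunity, had 1.33 and 1.24, and EDS1, a hub of immune receptor signalling, had 1.23 and 1.15. Of 9 output genes 2 were higher. They were BGL2, the glucanase also called PR2, at 1.54 and 1.32 and WRKY18 at 2.09 and 2.3, while PR1 was not called, at 0.26 and 0.66.

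Abscisic acid acts through receptors of the PYR/PYL family that inhibit phosphatases of type 2C, which otherwise hold SnRK2 kinases inactive. In OX17 the upstream genes gave a mixed picture. The receptor gene PYL4 was lower at -3.03 and -2.23 and PYL7 was higher at 1.11 and 1.21. The synthesis gene ABA2 was lower at -1.27 and -1.05, and so was CYP707A3, a hydroxylase that breaks the hormone down, at -1.32 and -1.31. The phosphatase gene HAI1 was the only one of 12 phosphatase and kinase genes called, at 2.18 and 2.39. The median of the 12 was 0.46, with 8 above 0 and 2 below 0 on both arrays. The phosphatase genes ABI1 (1.04 and 0.86), PP2CA (1.00 and 0.80) and HAB2 (0.92 and 0.86) fell short of a call.

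Of 9 transcription factors downstream, 4 were called higher and none lower, with a median of 0.74. NAC019 had 2.41 and 2.47 and RD26, a NAC factor of the drought response, had 2.26 and 2.66. HB-7, a homeodomain factor induced by abscisic acid, had 1.83 and 2.07. In OX7 both NAC019 (1.85 and 1.86) and RD26 (1.39 and 1.96) were called higher, and HB-7 stood at 0.26 and 0.50. ABF1 differed in sign between the arrays, at 0.92 and -1.02, and cannot be read.

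Of 22 genes for protection against drying and cold, 10 were called higher and none lower, with a median of 0.81 in OX17 and 0.45 in OX7. With RD20 and GolS2 these included the dehydrins COR47 (1.60 and 1.54), ERD10 (1.63 and 1.63) and ERD14 (1.95 and 1.71). LTI78, the widely used stress marker RD29A, had 2.03 and 2.18, and P5CS1, the rate-limiting enzyme of proline synthesis, had 1.37 and 1.46. The abscisic acid markers RAB18 and LTI65 were not called, at 0.73 and 0.58 and at -0.54 and -0.60, and COR15A stood at 0.53 and 0.35. In OX7 4 members were called higher, among them RD20 at 1.54 and 1.35, and GolS2 stood at -0.49 and -0.09.

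Of 17 leaf senescence genes 6 were called higher and none lower, with a median of 0.96 in OX17 and 0.27 in OX7. NAP, a NAC factor that promotes senescence, had 2.3 and 2.68, and NAC042, a NAC factor known to delay it, had 1.75 and 1.48. GSR 1, a cytosolic glutamine synthetase that moves nitrogen out of ageing leaves, had 1.52 and 1.68. The late protease marker SAG12 stood at 0.18 and -0.03 and the nuclease BFN1 at 0.15 and -0.12, so neither was called. Among dark and sugar starvation genes 3 of 16 were higher and 1 lower. TPS11 (2.13 and 2.57) and TPS8 (1.80 and 2.07), of the trehalose phosphate synthase family, were higher, while ASN1 was not called at 0.16 and 0.67. In OX7 3 genes of each of these lists were called higher, among them TPS8 at 1.11 and 1.17 and ASN1 at 1.48 and 1.88.

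**Figure D3:**
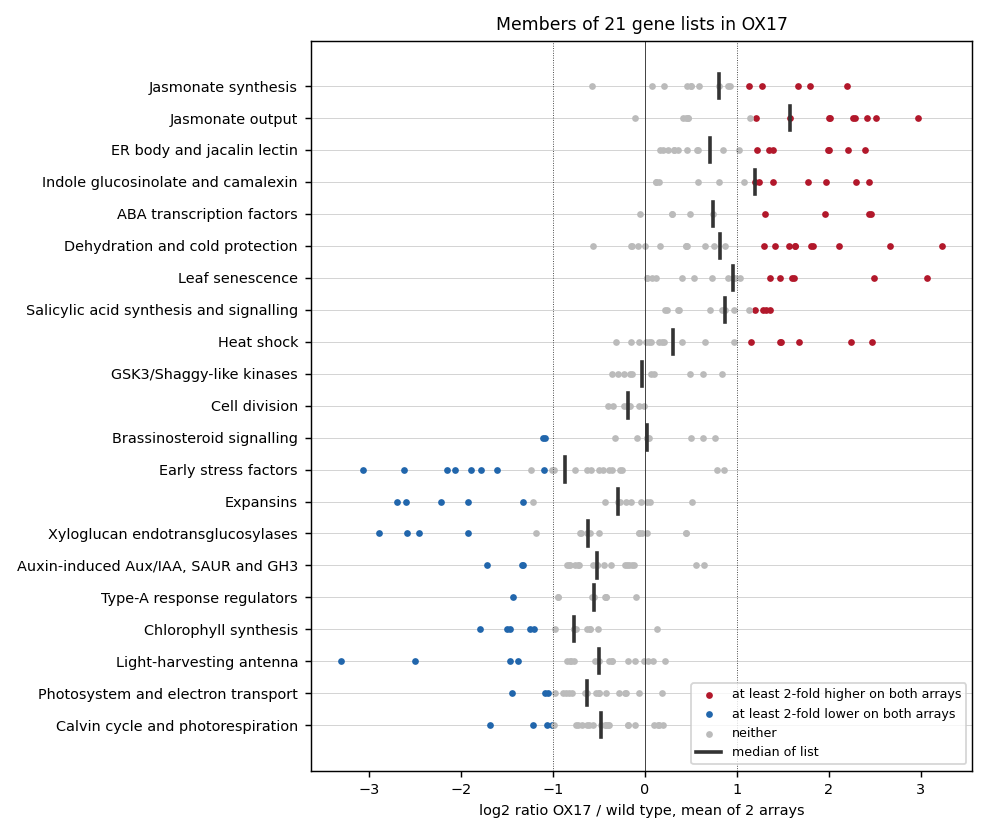
Mean log2 ratio of OX17 over wild type (horizontal axis) of each measured member of 21 gene lists, red where called higher, blue where called lower and grey otherwise, with a black bar at the list's median. Medians run between 1.58 for jasmonate output and -0.87 for early stress factors.

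All early stress factors called in OX17 were lower. These are transcription factor genes that plants switch on within minutes of touch, cold or wounding and switch off again. Of 22 members 8 were called lower and none higher, the median was -0.87, and 20 were below 0 on both arrays. Besides CBF1 the lowest were CBF2 (-2.93 and -2.33), RRTF1 (-2.05 and -2.25), the zinc finger repressor STZ (-2.02 and -2.12) and ERF104 (-1.76 and -2.03). In OX7 the median of the list was 0.43, and STZ had 0.67 and 0.95.

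Touch-responsive genes of other kinds were mixed. TCH4, a cell wall enzyme first found by its response to touch, had -2.53 and -2.38 in OX17 and 1.58 and 1.45 in OX7. The calmodulin-like gene TCH2 had -1.27 and -1.54 in OX17 and 0.46 and 0.17 in OX7. Within the same list of 6 touch-induced calmodulin-like genes AT1G76640 was higher, at 1.42 and 1.15, and TCH3 was not called, at 0.42 and 0.72.

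All genes called in the list for heat shock were higher in OX17. In the wider family of 65 genes whose annotation names heat shock, 9 were higher (13.8%) and 1 lower, AT4G21870 at -1.79 and -1.81. Of 18 members of the list 6 were called higher in OX17 and none lower, with a median of 0.30. The chaperones HSP70 (2.46 and 2.47), HSP90.1 (2.19 and 2.29) and AT1G07400, a small heat shock protein (1.68 and 1.67), were higher, as were the heat shock factor HSFA2 (1.59 and 1.36) and the coactivator MBF1C (1.63 and 1.31). In OX7 several of these stood below wild type, HSP70 at -0.58 and -0.80, HSP90.1 at -0.79 and -0.94, and AT1G07400 at -1.3 and -1.25. Other small heat shock genes were near 0 in OX17, among them HSP18.2 at 0.08 and 0.01 and HSP17.4 at -0.01 and -0.13.

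**Figure D4:**
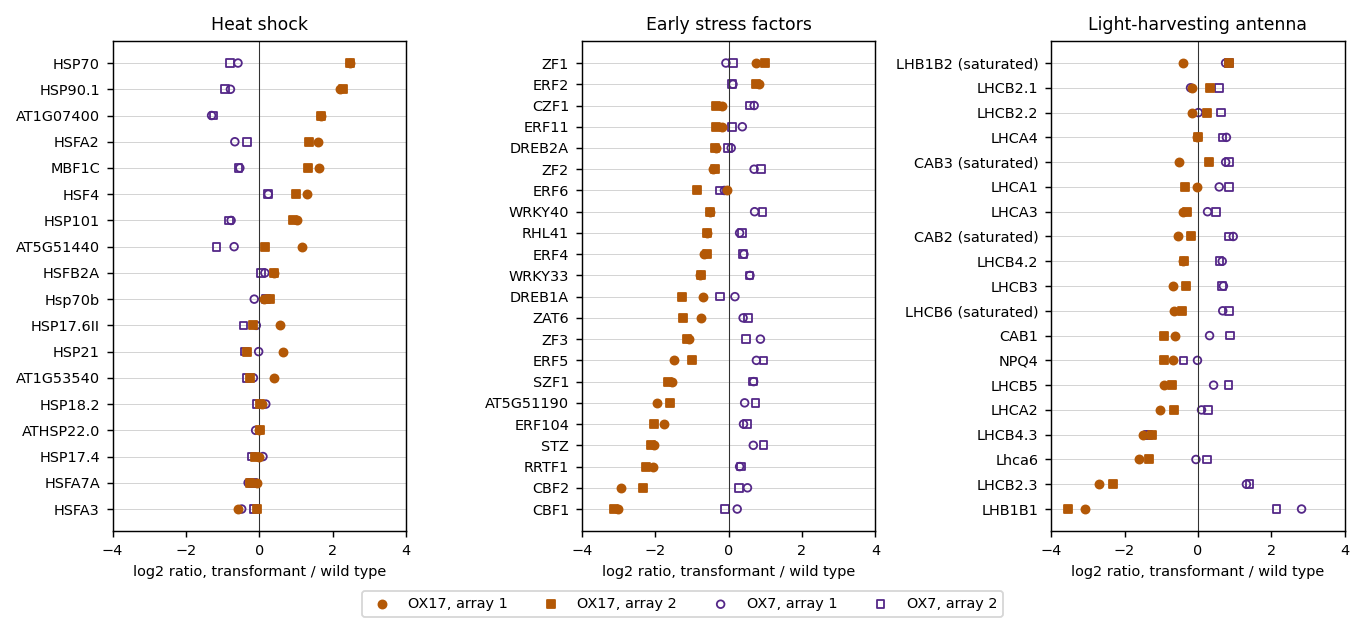
Log2 ratio of transformant over wild type (horizontal axis) for the members of 3 lists, ordered by their mean in OX17, with OX17 filled and OX7 open, circles for array 1 and squares for array 2. HSP70, HSP90.1 and AT1G07400 lie above 1 in OX17 and below 0 in OX7, and STZ and LHB1B1 lie below -1 in OX17 and above 0 in OX7.

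Every gene called among those that loosen or remodel the cell wall in the lists for expansins and xyloglucan endotransglucosylases was lower in OX17. Expansins slip the bonds between cellulose and other wall polymers, and 5 of 15 were called lower and none higher, with a median of -0.29. EXPA1 had -2.74 and -2.66, EXPA8 had -3.00 and -2.2, EXPA6 had -2.33 and -2.11, and EXPA5 had -2.02 and -1.84. Of 16 xyloglucan endotransglucosylases, which cut and rejoin the wall polymer xyloglucan, 4 were lower and none higher, with a median of -0.62. XTH4 had -3.18 and -2.62 and XTH6 had -2.79 and -2.39.

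In OX7 both lists had medians close to 0, 0.04 for expansins and 0.05 for xyloglucan endotransglucosylases. EXPA1 had 0.22 and 0.13 there and XTH4 had 0.16 and 0.17. Of 109 genes that the array annotates as pectin enzymes 8 were lower in OX17 (7.34%, against 1.93% over all genes) and 1 higher, with a median of -0.06. The 8 include SKU5, sks5 and SKS6, and whether this annotation is right for each gene was not checked. Of 36 genes for arabinogalactan proteins 4 were lower (11.1%) and 1 higher, with a median of -0.23. Neither share was matched for brightness. FLA2, a fasciclin-like arabinogalactan protein, had -2.86 and -2.32.

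In the lists for auxin-induced genes and type-A response regulators the 4 genes called were lower. Of 22 auxin-induced genes 3 were lower, all of the Aux/IAA repressor family (SHY2 at -1.75 and -1.70, IAA7 at -1.41 and -1.24, IAA14 at -1.36 and -1.31), and the median was -0.53. In the wider family whose annotation names auxin, 4 of 136 genes were higher and 4 lower, with a median of -0.10. Of 9 type-A response regulators, which respond to cytokinin, RR16 alone was called, at -1.59 and -1.29, with a list median of -0.56. No cell division gene was called among 9.

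In the brassinosteroid pathway itself most genes did not differ by 2-fold. Of 11 signalling genes 2 were called lower, the receptor gene BRI1 at -1.10 and -1.08 and BKI1, an inhibitor of that receptor, at -1.14 and -1.07. The median was 0.02, with BES1 at -0.03 and 0.10 and BZR1 at 0.33 and -0.30. Of 11 synthesis and breakdown genes only DWF1, a late step of the synthesis of the sterol precursor campesterol, was called, at -1.57 and -1.43 in OX17 against 0.92 and 0.71 in OX7. The synthesis genes DWF4 and CPD, which brassinosteroid represses, stood at -0.18 and -0.28 and at 0.36 and 0.54.

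None of the plant's own 10 GSK3/Shaggy-like kinase genes was called in OX17, and their median was -0.04. SK32 had the highest ratio, 0.86 and 0.82, and in OX7 it had 1.98 and 1.09. SK13 had 0.63 and 0.63, SK 11 had 0.52 and 0.46, and the other 7 lay between -0.36 and 0.10 as means of the arrays. BIN2 had -0.35 and 0.03, GSK1 had -0.51 and -0.22, and SKdZeta had -0.44 and -0.02. AT3G61160 had -0.46 and -0.13, SK41 had -0.21 and -0.06, SK42 had 0.27 and -0.07, and ATSK12 had -0.02 and 0.16. Whether any of these probes also binds the wheat transcript was not tested.

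All genes called in the lists for photosynthesis and chlorophyll synthesis were lower in OX17. Of 14 chlorophyll synthesis genes 5 were called lower and none higher, with a median of -0.77. PCB2, the divinyl reductase, had -1.82 and -1.77, the methyltransferase CHLM had -1.53 and -1.48, and HEMA1, the first committed step, had -1.45 and -1.5. GUN5, a subunit of the chelatase that inserts magnesium, had -1.33 and -1.17. HY5, a factor that promotes light responses, was lower at -2.01 and -2.34.

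For proteins of the photosynthetic machinery, saturated spots limit what can be read. Of 19 light-harvesting antenna genes 4 were called lower and none higher, and the list median was -0.50. Over the 10 members with no saturated spot on any of the 4 arrays the median was -0.83, with 8 below 0 on both arrays. LHCB2.3 had -2.68 and -2.32 in OX17 and 1.32 and 1.4 in OX7, and LHB1B1 lay apart in the same way. LHCB4.3 was lower in both transformants, at -1.5 and -1.26 in OX17 and at -1.36 and -1.36 in OX7. The LHCB1 and LHCB2 genes have near-identical copies, so the value of a single one is uncertain.

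Of 19 photosystem and electron transport genes 3 were lower and none higher. Their median was -0.63, and -0.72 over the 10 without a saturated spot, all 10 of which were below 0 on both arrays. PSBQA, a protein of the oxygen-evolving complex, had -1.54 and -1.36. Of 23 genes for the Calvin cycle and photorespiration 4 were lower and none higher, with a median of -0.48 and the same -0.48 over the 17 without a saturated spot. RBCS1B and RBCS3B, small subunits of Rubisco with near-identical copies, were saturated in wild type on both arrays. Their mean ratios, 3.22-fold and 2.33-fold lower in OX17 than in wild type, are thus minima under the processing used here only. Across the alternative settings the log2 ratio lay between -2.10 and -1.25 for RBCS1B and between -1.65 and -0.91 for RBCS3B.

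Of 278 genes annotated as ribosomal proteins 13 were called lower (4.68%, against 1.93% over all genes) and none higher, at a median of 0.05 over the family. In the brightest group of genes 4.93% were called lower, and the family was not matched for brightness. Among the 14 whose description names the plastid or chloroplast, 5 were lower (35.7%) and the median was -0.98. The other genes of the 13 lack both words, which does not show that their proteins act outside the plastid. RPL15, of the large plastid subunit, had -1.96 and -1.79, and AT1G29070, a plastid L34 protein, had -1.83 and -1.63.

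Several families taken from the annotation had a larger share of higher genes than the 2.48% over all genes. Calls were more frequent among bright spots, and these shares were not matched for brightness. Of 45 glutathione transferases, which join toxic compounds to glutathione, 9 were higher (20%) and 1 lower, and the median was 0.36. Of 211 cytochromes P450 14 were higher (6.64%) and 1 lower. Of 68 WRKY factors, regulators of immunity and senescence, 7 were higher (10.3%) and none lower, led by WRKY75 at 2.21 and 2.5. Of 36 genes whose annotation words mark them as NAC factors 6 were higher (16.7%). The words miss NAC019, RD26, NAP and NAC3, also called higher, so this share is not that of the whole NAC family. Of 85 genes annotated as receptor-like kinases 8 were higher (9.41%) and 1 lower. The medians of these last 4 families were close to 0, at 0.01 for cytochromes P450, 0.10 for WRKY factors, 0.10 for NAC factors and -0.03 for receptor-like kinases. FRK1, a kinase gene used as a marker of pattern-triggered immunity, had 1.70 and 1.81.

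Some called genes lay side by side. Of 19459 measured genes with a place in the reference gene order, 487 were called higher and 375 lower. There were 39 neighbouring pairs both called higher and 13 both called lower. How many pairs these shares alone would give was not computed, so the counts are not read as clustering. There were 7 runs of 3 genes, all higher. One held the glutathione transferases GSTU5, GSTU4 and GSTU3 and another the cytochromes P450 CYP71B23, CYP71B3 and CYP71B24, on chromosomes 2 and 3. Tandem copies of this kind are similar in sequence, and cross-hybridisation between their probes was not tested. The same holds for other named genes with close copies, such as PDF1.2, GSTF6, CYP71A13, RD28 and the nitrilases. Calls were spread over the genome, with between 2.01% and 3.03% of genes higher and between 1.83% and 2.18% lower on each of the 5 chromosomes.

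Other pathways had single genes called. PAP1 was higher, yet of 18 phenylpropanoid and flavonoid enzymes none was called higher and 2 were lower, chalcone synthase TT4 at -1.85 and -1.3 and the glycosyltransferase UGT78D2 at -1.82 and -1.93. Of 17 phosphate response genes 2 were lower. SPX1, a sensor protein of phosphate status, had -2.2 and -1.95 and SRG3, a phosphodiesterase that frees phosphate from lipid remnants, had -1.39 and -1.57, and in OX7 SPX1 had -0.79 and -1.05. Among 16 aquaporins RD28 was higher at 1.75 and 1.90, PIP3 was lower at -1.86 and -1.32, and the other call was DELTA-TIP. APX1, a cytosolic ascorbate peroxidase that removes hydrogen peroxide, had 1.31 and 1.5, and of 18 clock genes PRR7 was higher at 1.28 and 1.09 and RVE1 lower at -1.02 and -1.25.

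OX17 differed from wild type at more genes than OX7 did. In OX7, 92 of 18973 genes (0.485%) were called higher and 18 (0.0949%) lower, and the SD of the mean log2 ratio over genes was 0.48 in OX17 and 0.23 in OX7. The genes called higher in OX17 had a median of 0.24 in OX7 (482 with a value), and those called lower had a median of 0.01 (376 with a value), beside -0.0026 over all genes in OX7. Of 18525 genes measured in both transformants, 510 (2.75%) had OX17 above OX7 by at least 1 with no overlap of the arrays, and 576 (3.11%) had OX17 below OX7. Ranked by the gap between the nearest arrays of the 2 plants, the farthest above were ERF53, HSP70, HSP90.1, AT1G07400 and AT5G48570 (2.2 and 2.04 in OX17, -0.84 and -0.81 in OX7). The farthest below were AT2G10940, DELTA-TIP, AT5G44020, ORA47 and LHB1B1. With 1 plant of each transformant, the difference between them has no replicate check.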

How the data were processed

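The spot intensity values, mean and background in each channel, were read with Agilent Feature Extraction 7.5.1, per the file headers. A log10 ratio of Cy5 over Cy3 for each spot is deposited beside them and comes from the same program. A further table with log2 ratios was made by the authors; limma is named in the submitters' processing notes, and how it was run is not given in the sources used here. Its OX17 columns ran as Cy5 over Cy3, with r of 0.998 and 0.998 against the loess ratios computed here and medians of -0.0054 and 0.0049, close to a centring at 0.

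The mean and background intensities went through limma 3.58.1 (R 4.3.3), by normexp with an offset of 50 and loess within each array, with 1075 control spots at weight 0. Ratios were turned to TaSK5 over wild type. Because loess centres the ratios at each brightness, a change shared by most transcripts would be lost. Saturated spots were kept. Genes with an outlier-flagged spot (308) or not well above background in 1 RNA on both arrays (1455) were left out, of 21500 loci with 1 probe each. In the OX17 channel 95.9% and 89.4% of gene probes were well above background, in the wild-type channel 92.6% and 95.7%. Precision is limited by the number of arrays. Each array was a slide of its own, and both RNAs share it. The reference table of TAIR10.1 gave names for 21191 loci; no build is named for the probes. The steps were tested on simulated data.

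The 46 lists (613 loci; 13 of 618 entries were not on the array) and the families, which rest on words in the array's annotation, were chosen with earlier results of these data known. Named were the 15 highest and 15 lowest called genes by the smaller of the array values, up to 4 members per list of largest mean ratio, all GSK3/Shaggy-like kinases and the 5 genes farthest apart from OX7 in each direction. Further members were named after their values were seen. The annotation words for glutathione transferases and NAC factors were widened, and the plastid ribosomal family added, after values were seen. A planned search of promoters for motifs was not run, because no promoter sequence was used here.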

Additional observations from a re-analysis of the deposited data

Results flagged for a closer look

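Among the 211 genes named by the rule, 21 lay on opposite sides of wild type in OX17 and OX7. Each of the 21 was at least 2-fold from wild type on both OX17 arrays. On both OX7 arrays each was at least 0.5 (log2) to the other side. The other called genes among the 211 did not meet both conditions. The rule itself names genes far apart from OX7, so this count is partly built in. The share over all genes measured was not counted. This minimum of 0.5, and that of 0.2 used for lists, were chosen after the values were seen. With 1 plant each, the difference between OX17 and OX7 was not tested, and its cause was not tested.

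Several of these were below wild type in OX17 and above it in OX7. The mean log2 ratio of LHB1B1 was -3.31 in OX17 and 2.48 in OX7 and that of LHCB2.3 was -2.5 and 1.36. RBCS3B had -1.22 in OX17 and 0.79 in OX7, but its wild-type spots were saturated on all 4 arrays and its OX7 spot on 1, so its OX7 value cannot be read. TCH4 had -2.46 in OX17 and 1.52 in OX7, and DELTA-TIP had -3.97 and 0.73. The guard cell marker AT1G22690 had -1.54 in OX17 and 0.81 in OX7, and the sterol gene DWF1 had -1.5 and 0.81.

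Stress and defence genes on the same side were ORA47 (-3.18 in OX17, 1.37 in OX7), STZ (-2.07 and 0.81), TGG1 (-2.79 and 1.24), TGG2 (-1.81 and 1.73) and CYP707A3 (-1.31 and 0.77). AT2G10940 had -4.10 in OX17 and 1.24 in OX7, DIC2 had -3.09 and 0.83, and AT4G29780 had -2.78 and 1.16.

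Other genes lay the other way, above wild type in OX17 and below it in OX7. HSP70 had 2.47 in OX17 and -0.69 in OX7, HSP90.1 had 2.24 and -0.87, AT1G07400 had 1.67 and -1.28, and AT5G48570 had 2.12 and -0.83. NIT4 had 1.28 in OX17 and -0.96 in OX7, and NIMIN1, which binds the salicylic acid receptor NPR1, had 1.31 and -0.59.

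Of the lists, counting members with no saturated spot, those whose medians lay at least 0.2 to opposite sides on all arrays of the 2 plants were early stress factors, at -0.87 in OX17 and 0.43 in OX7, and heat shock genes, at 0.30 in OX17 and -0.26 in OX7.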

How the results depend on the processing

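The genes called higher and lower in OX17, 490 and 380, became 754 and 599 with Agilent's own log ratio, 241 and 189 after scaling between the 4 arrays, 1165 and 1009 at 1.5-fold, and 68 and 52 at 4-fold. Median centring in place of loess gave 307 higher, of which 291 were among the 490, and 285 lower. The authors' deposited table gave 492 and 374. With 1 array left out the counts lay between 621 and 692 higher and between 525 and 554 lower, since 1 array then decides. No called gene among the 211 named by the rule changed sign under an alternative. Over these 211 genes and the alternatives, 432 values moved by more than the spread between the arrays and 1045 did not. Genes named outside the rule were not checked in this way. The median of the list for abscisic acid synthesis and breakdown reversed to -0.0802 without array 1 and was 0.107 without array 2, against 0.17 with both. The cause was not tested.

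No paired analysis was possible because the replicate numbers mark the dye orientation of 1 RNA pair and the results come from no test. The main limits are 1 plant per transformant, possible sharing of wild-type RNA, an unmeasured transgene, saturated photosynthesis probes, unknown probe specificity between gene copies, and shrunken ratios of dim probes.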
